A study of Mus musculus with 8 samples.

Results

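The iron handling genes described here are 10 mouse genes that control hepcidin (*Hamp*, *Hfe*, *Tfr2*, *Tmprss6*), bring iron into the cell (*Tfrc*, *Slc39a14*, *Slc11a2*), store it (*Fth1*, *Ftl1*) or release it (*Slc40a1*). They were taken by name, through every non-control array probe whose accession belongs to one of them. The rule that finds them uses no measured value, but the 10 genes were chosen with earlier results of these data known. All 10 were on the array, with 14 probes, among 21368 named genes. Of these 10 genes, 9 had a probe whose signal the scanning software marked as well above background on 4 or more of the 8 arrays and were tested among 11072 genes in all, and *Tfrc* was not tested.

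The liver is the source of hepcidin, the peptide hormone encoded by *Hamp*, which binds the iron exporter ferroportin and has it degraded, so that less iron leaves macrophages, hepatocytes and the gut. Hepatocytes sense circulating iron through transferrin receptor 2, HFE and bone morphogenetic protein (BMP) signalling to SMAD proteins, and inflammation raises hepcidin through interleukin 6 and STAT3. Inside the cell, iron regulatory proteins bind the mRNAs of ferritin, ferroportin and transferrin receptor 1, so these mRNAs answer to iron partly through translation or decay, which an array does not read in full.

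Global mRNA was measured in hepatocytes isolated from 4 hCNR1+/+ mice (strain label CNRO) and 4 hCNR1-/- mice (strain label CNRO Alb-Cre), all males of 12 to 14 weeks on standard diet. The hCNR1-/- mice lack the cannabinoid 1 receptor gene *Cnr1* in hepatocytes and came from crosses of CNR1flox/flox mice with mice carrying Cre under the albumin promoter, and the hCNR1+/+ mice were littermates. The labels name Alb-Cre only for the hCNR1-/- mice, so the presence of Cre and the loss of *Cnr1* cannot be told apart. Each mouse had 1 array with 1 dye (Cy3), and the comparison asks whether iron handling genes differed between the genotypes without injury.

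On the single slide, row 1 held the 4 hCNR1+/+ arrays and row 2 the 4 hCNR1-/- arrays, and the effect of the row cannot be told apart from that of the genotype. The array of hCNR1-/- mouse 4 stood apart, with a 75th percentile of intensity of 29.3 against 62.0 to 139 on the other 7, and a mean correlation with its group of 0.942 against 0.972 to 0.975 for the other hCNR1-/- arrays. The signal of the *Cnr1* probe exceeded background on 0 of 8 arrays, so genotypes were taken from the labels. All 20 hepatocyte marker genes were tested. Of 18 Kupffer cell and macrophage markers 14 were tested, all 14 with lower means in hCNR1-/-, as had 4808 of all 11072 tested genes. In such samples fewer cells of a type and less RNA per cell cannot be told apart.

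None of the 9 tested iron handling genes passed an adjusted p of 0.05 (limma with Benjamini-Hochberg adjustment over 11072 genes), and 1, *Slc40a1*, had an unadjusted p below 0.05, higher in hCNR1-/-. Over all genes, 2.94% were called higher and 1.3% lower in hCNR1-/- after adjustment, and 14.7% were higher and 6.92% lower at an unadjusted p below 0.05. By a second rule, a fold change above 2 with an unadjusted p below 0.05, 0 of 9 passed in either direction, against 4.78% of all genes higher and 3.75% lower. The 4 arrays of one genotype all lay above the 4 of the other for 1 of 9 genes, *Slc40a1*, higher in hCNR1-/-, while 12.7% of all genes were separated in that direction and 5.04% in the other. The 9 log2 fold changes had a median of 0.16, with 5 above 0 and 4 below, beside a median of 0.08 over all tested genes. With 4 mice per genotype these counts leave room for differences of the sizes given by the intervals below.

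**Figure D1:**
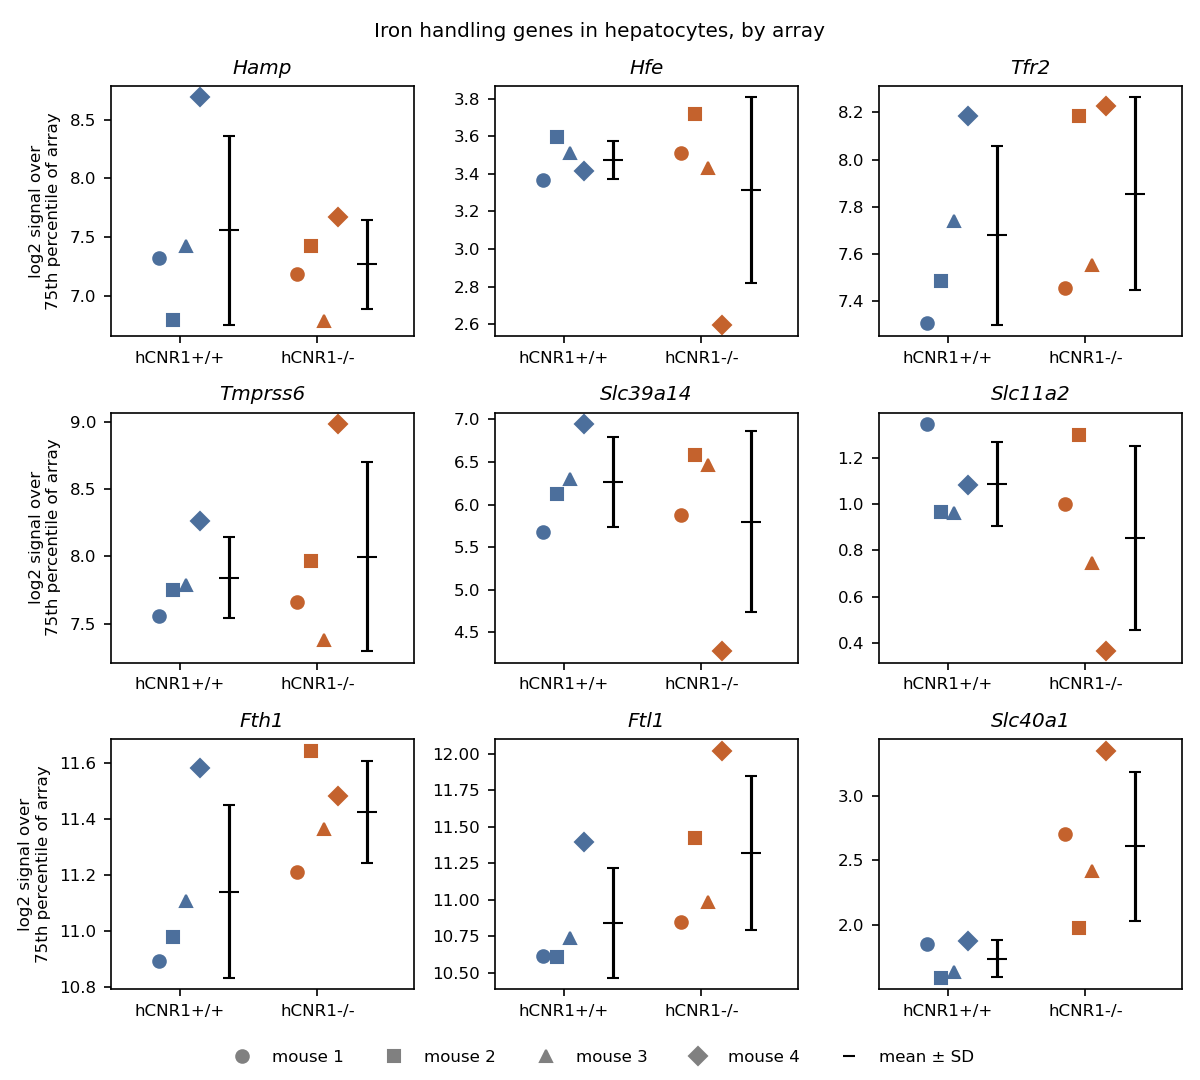
Signal of the 9 tested iron handling genes on each array, as log2 of the intensity over the 75th percentile of that array (vertical axis, own range in each panel), by genotype, with mean ± SD (n = 4). Mouse numbers only name the samples and pair none across genotypes; in the panel of *Slc40a1* the hCNR1-/- arrays lie between 1.97 and 3.35, all above the hCNR1+/+ arrays.

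Hepcidin is described first. All levels are log2 values of the probe's intensity over the 75th percentile of its array, so a level can be compared between mice but not between probes. *Hamp* measured 7.32, 6.79, 7.42 and 8.69 in hCNR1+/+ mice 1 to 4 and 7.19, 7.43, 6.78 and 7.67 in hCNR1-/- mice 1 to 4. The groups overlapped throughout, and the highest value belonged to hCNR1+/+ mouse 4. The mean was 7.56 ± 0.80 (SD, n = 4) in hCNR1+/+ and 7.27 ± 0.38 (n = 4) in hCNR1-/-, a log2 fold change of -0.29 with a 95% confidence interval from -1.17 to 0.59 (limma, adjusted p = 0.697). Without hCNR1+/+ mouse 4 the log2 fold change was 0.09, so the sign of the *Hamp* difference rested on 1 mouse.

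The start of *Hamp* is shown beside that of its paralogue *Hamp2*, because a BMP-responsive element and a STAT site near it are the known entry points of the iron and the inflammatory signals. RefSeq promoter sequence of GRCm38.p6 was found for 6 of the 10 genes, and both stretches below run 5′ to 3′ on the minus strand over the 150 bases before the annotated start, with GGCGCC (BMP-responsive core) and TTCNNNGAA (STAT palindrome) in capitals.
*Hamp*, chr7:30944030-30944179: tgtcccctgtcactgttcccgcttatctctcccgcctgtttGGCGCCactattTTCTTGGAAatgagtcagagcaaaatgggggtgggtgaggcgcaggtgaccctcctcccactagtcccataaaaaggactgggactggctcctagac
*Hamp2*, chr7:30924182-30924331: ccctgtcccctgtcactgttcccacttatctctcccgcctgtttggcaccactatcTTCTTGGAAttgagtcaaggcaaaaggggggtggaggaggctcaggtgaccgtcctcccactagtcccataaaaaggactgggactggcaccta
In *Hamp* the GGCGCC match spans bases 109 to 104 before the start and the TTCNNNGAA match bases 97 to 89. In *Hamp2* TTCNNNGAA lies at bases 94 to 86, and GGCGCC does not occur in the 250 bases searched. The aligned stretches were identical at 135 of 153 columns (88.2%). Searched on both strands, GGCGCC occurs in 9.59% and TTCNNNGAA in 7.02% of the 32851 RefSeq windows of 250 bases before a start, and the motifs do not overlap. A match is a description of the sequence and not of binding.

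*Hamp2*, whose function is less well known than that of *Hamp*, measured 0.63, 1.90, 0.81 and 4.80 in hCNR1+/+ and -0.53, 0.60, 0.43 and -0.76 in hCNR1-/- mice 1 to 4. Every hCNR1-/- value lay below every hCNR1+/+ value, though 0.63 and 0.60 nearly touched, and hCNR1+/+ mouse 4 again had the highest level. The log2 fold change was -2.10 with an interval from -3.96 to -0.25 (limma, adjusted p = 0.179), which did not pass the threshold, and it was -1.18 without hCNR1+/+ mouse 4. Its signal exceeded background in 4 hCNR1+/+ mice and in 3 hCNR1-/- mice. As the paralogues are close in sequence, a probe for one may also bind RNA of the other.

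The membrane proteins that set hepcidin showed no called difference. *Tfr2*, which encodes the hepatocyte's sensor of iron-loaded transferrin, measured 7.31, 7.48, 7.74 and 8.18 in hCNR1+/+ and 7.45, 8.19, 7.55 and 8.23 in hCNR1-/- mice. The values interleaved, with a log2 fold change of 0.18 and an interval from -0.45 to 0.80 (limma, adjusted p = 0.743), and 0.05 to 0.34 with single arrays left out. *Hfe*, whose product acts with transferrin receptors and whose loss causes hereditary iron overload, measured 3.37, 3.59, 3.51 and 3.42 in hCNR1+/+ and 3.51, 3.72, 3.43 and 2.60 in hCNR1-/- mice. Only hCNR1-/- mouse 4 lay outside a narrow band, the log2 fold change was -0.16 with an interval from -0.74 to 0.43 (limma, adjusted p = 0.753), and without that mouse it was 0.08.

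*Tmprss6* encodes matriptase-2, the protease that cuts hemojuvelin and thereby lowers hepcidin. It measured 7.55, 7.75, 7.79 and 8.27 in hCNR1+/+ and 7.66, 7.97, 7.37 and 8.99 in hCNR1-/- mice. Here hCNR1-/- mice held both the lowest and the highest value. The log2 fold change was 0.16 with an interval from -0.62 to 0.94 (limma, adjusted p = 0.824), and it was -0.17 without hCNR1-/- mouse 4.

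Of 25 further genes of hepcidin control, 20 were tested, 0 were called after adjustment in either direction (3 higher and 3 lower at an unadjusted p below 0.05, limma, where 14.7% and 6.92% of all genes stood), and the median log2 fold change was -0.03. *Hjv*, the BMP co-receptor hemojuvelin, measured 1.75, 0.74, 0.93 and 0.67 in hCNR1+/+ and 0.71, 0.06, -0.60 and 0.36 in hCNR1-/- mice. The groups overlapped at 1 hCNR1-/- value, and the log2 fold change was -0.89 (limma, adjusted p = 0.167). *Stat3*, which carries the interleukin 6 signal to *Hamp*, measured 5.74, 5.57, 5.93 and 6.23 in hCNR1+/+ and 6.28, 6.67, 6.70 and 7.31 in hCNR1-/- mice, with no overlap and a log2 fold change of 0.87 (limma, adjusted p = 0.0948). The BMP target genes *Id1* and *Smad7* had log2 fold changes of 0.09 and -0.03, with intervals from -0.80 to 0.98 and from -1.05 to 0.98 (limma, adjusted p = 0.915 and 0.976), and leaving out single arrays turned the sign of both.
For the ligands *Bmp6* and *Bmp2*, which in liver come mainly from endothelial cells, and for *Smad6*, another BMP target, too few arrays were well above background to test. *Bmp6* and *Smad6* were so on 0 of 8 arrays and *Bmp2* on 1 of 4 hCNR1+/+ and 0 of 4 hCNR1-/- arrays.

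Iron uptake comes next. *Slc39a14* encodes ZIP14, the main route into hepatocytes for iron that is not bound to transferrin. It measured 5.68, 6.12, 6.30 and 6.95 in hCNR1+/+ and 5.88, 6.58, 6.46 and 4.28 in hCNR1-/- mice. Of the hCNR1-/- mice 3 lay within the hCNR1+/+ range and mouse 4 lay below all others. The log2 fold change of -0.46, with an interval from -1.58 to 0.66 (limma, adjusted p = 0.626), was 0.05 without that mouse.

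*Slc11a2*, the divalent metal transporter DMT1, had 2 probes. The brighter one measured 1.35, 0.96, 0.96 and 1.08 in hCNR1+/+ and 1.00, 1.30, 0.75 and 0.36 in hCNR1-/- mice, and its log2 fold change was -0.24 with an interval from -0.78 to 0.31 (limma, adjusted p = 0.606), and -0.07 without hCNR1-/- mouse 4. The dimmer one measured -0.83, -1.11, -0.83 and -0.07 in hCNR1+/+ and -1.12, -0.34, -1.03 and 0.55 in hCNR1-/- mice, a difference of 0.22. The groups overlapped with both probes, and the probes differed in sign, since hCNR1-/- mouse 4 was the lowest of its group with one and the highest with the other.

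*Tfrc*, transferrin receptor 1, takes up iron-loaded transferrin in most dividing cells and is sparse in resting hepatocytes. Its 3 probes were at or near background. One of them measured -3.32, -3.30, -4.91 and -4.20 in hCNR1+/+ mice, where it was well above background on 0 of 4 arrays, and -1.32, -2.31, -1.68 and -0.74 in hCNR1-/- mice, where it was so in mice 1, 3 and 4. The hCNR1-/- mean was 2.04 times the mean of the lowest signals well above background on the hCNR1+/+ arrays. That hCNR1-/- mean includes mouse 2, where the probe was not above background, so the figure is not a strict lower bound. No test was made because too few arrays measured it. The probe spotted 10 times exceeded background in 1 hCNR1+/+ mouse and in 2 hCNR1-/- mice, with levels from -3.73 to -2.25 and from -2.72 to -2.18. The third was not above background on any array, so such a figure is given for 1 of 3 probes.

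In the list of 16 other genes of iron uptake and plasma carriers, 14 were tested and 1 was called higher and 0 lower (limma), with a median log2 fold change of 0.04. Of all tested genes, 2.94% were called higher and 1.3% lower. At an unadjusted p below 0.05 (limma), 1 of the 14 was higher and 4 lower, beside 14.7% and 6.92% of all genes. With a fold change above 2 as well, 0 were higher and 3 lower, beside 4.78% and 3.75% of all genes. The call was *Picalm*, a clathrin adaptor that takes part in transferrin receptor uptake, at 4.54, 4.52, 4.52 and 4.10 in hCNR1+/+ and 5.46, 5.20, 5.68 and 5.33 in hCNR1-/- mice. The groups were clearly separate, with a log2 fold change of 1.00 and an interval from 0.54 to 1.46 (limma, adjusted p = 0.0334). The adjusted p of *Picalm* stayed below 0.05 in 5 of 21 alternative settings, with a log2 fold change from 0.44 to 1.09.
Transferrin itself, *Trf*, had a log2 fold change of 0.42 (limma, adjusted p = 0.42), the haemoglobin carrier haptoglobin, *Hp*, 0.29 (adjusted p = 0.689), and *Lcn2*, the siderophore carrier lipocalin 2, 0.15 (adjusted p = 0.771). Without hCNR1-/- mouse 4 these were 0.22 for *Trf*, -0.0051 for *Hp* and -0.03 for *Lcn2*. *Steap3*, a ferrireductase of endosomes, measured 0.41, 0.39, 0.67 and 0.60 in hCNR1+/+ and 1.07, 0.92, 0.70 and 1.00 in hCNR1-/- mice, without overlap, for a log2 fold change of 0.41 (limma, adjusted p = 0.248).

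Ferritin stores iron in a shell of heavy and light chains. *Fth1*, the heavy chain that oxidises iron, measured 10.89, 10.98, 11.11 and 11.58 in hCNR1+/+ and 11.21, 11.65, 11.36 and 11.48 in hCNR1-/- mice. Apart from hCNR1+/+ mouse 4 every hCNR1+/+ value lay below the hCNR1-/- values. The log2 fold change was 0.28 with an interval from -0.21 to 0.78 (limma, adjusted p = 0.486), and it was 0.43 without hCNR1+/+ mouse 4.

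*Ftl1*, the light chain, had 2 probes that both measured more in hCNR1-/-. The brighter gave 10.62, 10.61, 10.74 and 11.40 in hCNR1+/+ and 10.85, 11.43, 10.99 and 12.02 in hCNR1-/- mice, with overlap at hCNR1+/+ mouse 4 and a log2 fold change of 0.48 (interval -0.21 to 1.17, limma, adjusted p = 0.402), which was 0.25 without hCNR1-/- mouse 4. The dimmer gave 9.31, 9.57, 9.55 and 9.69 in hCNR1+/+ and 9.83, 10.03, 9.82 and 10.65 in hCNR1-/- mice. These did not overlap, the difference was 0.55 with an interval from 0.02 to 1.09, and its adjusted p over all tested probes was 0.205 (limma). So no ferritin probe passed the threshold. Under quantile normalization of the arrays *Fth1* had a log2 fold change of -0.08 and without any scaling -0.27, while *Ftl1* had 0.10 and -0.08.

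Of 5 other genes of storage, chaperones and ferritin turnover, 4 were tested and 0 called (limma), beside 2.94% of all genes higher and 1.3% lower. At an unadjusted p below 0.05 (limma) there were also 0, beside 14.7% and 6.92% of all genes. The median was 0.35, beside 0.08 over all tested genes. *Ncoa4*, which delivers ferritin for breakdown, had a log2 fold change of 0.22 (limma, adjusted p = 0.58).

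*Slc40a1* encodes ferroportin, the only known iron exporter of animal cells and the target of hepcidin, found in hepatocytes and more so in Kupffer cells. It measured 1.85, 1.59, 1.64 and 1.88 in hCNR1+/+ and 2.70, 1.97, 2.42 and 3.35 in hCNR1-/- mice. The hCNR1+/+ mice lay close together, and all 4 hCNR1-/- mice lay above them, mouse 2 by the least and mouse 4 by the most. The means were 1.74 ± 0.15 (SD, n = 4) and 2.61 ± 0.58 (n = 4), a log2 fold change of 0.87 with an interval from 0.22 to 1.52, or 1.83-fold (limma, unadjusted p = 0.014, adjusted p = 0.122). The exact two-sided permutation test gave p = 0.0286, the smallest that 4 against 4 arrays allow. Since 12.7% of all genes were separated in this direction, that separation was common in these data.

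The *Slc40a1* difference kept its sign in all 21 alternative settings, from 0.32 without scaling to 1.08 without hCNR1-/- mouse 2. Without hCNR1-/- mouse 4 it was 0.62 (limma, adjusted p = 0.0763). Only with array weights did it pass the threshold, at 0.69 (limma, adjusted p = 0.0253). The unscaled intensities were 480, 420, 343 and 228 in hCNR1+/+ and 807, 312, 503 and 299 in hCNR1-/- mice. Unscaled, the groups overlapped, so the separation appeared once each array was set against its own 75th percentile.

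Kupffer cell and macrophage markers moved the other way. The mean of the 14 tested markers ran from 1.24 to 2.36 in hCNR1+/+ and from 0.23 to 0.98 in hCNR1-/- mice, without overlap. All 14 had lower means in hCNR1-/-, as had 4808 of all 11072 tested genes. Of the 14, 2 were called lower (*Marco*, -2.41, adjusted p = 0.0336, and *Ctss*, -1.89, adjusted p = 0.0124, limma), beside 1.3% of all genes. *Ctss* was well above background on 4 hCNR1+/+ arrays but on only 2 hCNR1-/- arrays. The median log2 fold change of the 14 was -0.98, and *Timd4* was not above background on any array. The part of these markers in the *Slc40a1* result was not tested. The mean of the hepatocyte markers overlapped, from 7.75 to 8.48 in hCNR1+/+ and from 7.64 to 8.10 in hCNR1-/- mice. Of these 20 markers, 9 had higher and 11 lower means in hCNR1-/-. *Apob* alone was called higher (1.63, limma, adjusted p = 0.0477) and 0 were called lower, beside 2.94% and 1.3% of all genes. Without overlap, 1 was higher (*Apob*) and 2 lower (*Pck1*, -1.81, and *Ass1*, -1.14), beside 12.7% and 5.04% of all genes.

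**Figure D2:**
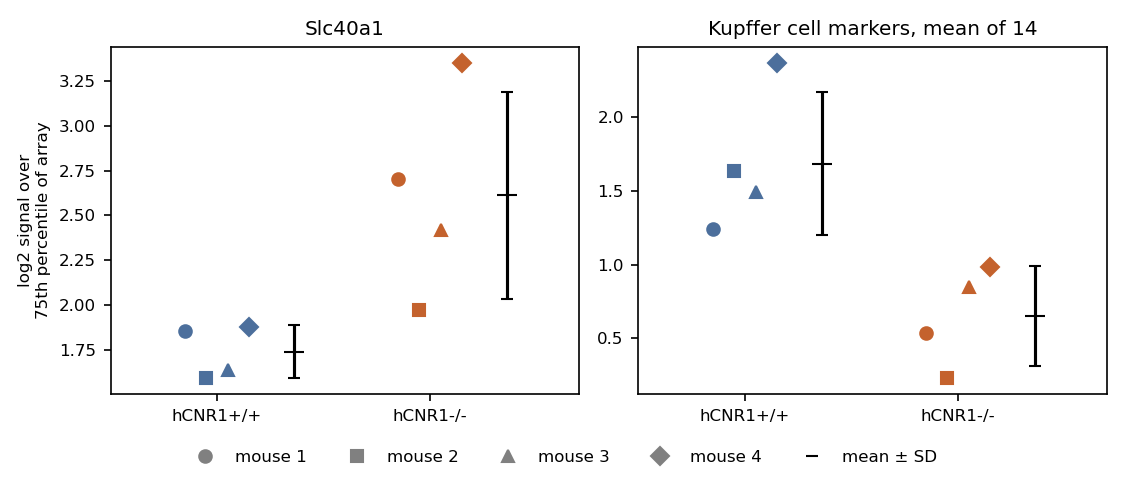
Left, level of *Slc40a1* on each array; right, mean level of the 14 tested Kupffer cell and macrophage markers on the same arrays, both as log2 of intensity over the 75th percentile of the array, with mean ± SD (n = 4). *Slc40a1* is higher on all hCNR1-/- arrays, at 1.97 to 3.35, while the marker mean is lower on all of them, at 0.23 to 0.98.

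The neighbours of ferroportin in iron export showed no call. Of 4 genes 3 were tested and 0 called (limma), beside 2.94% of all genes higher and 1.3% lower. At an unadjusted p below 0.05 (limma) there were also 0, beside 14.7% and 6.92% of all genes. The median was 0.31, beside 0.08 over all tested genes. *Cp*, the plasma ferroxidase ceruloplasmin that loads exported iron onto transferrin, had a log2 fold change of 0.31 with an interval from -0.51 to 1.14 (limma, adjusted p = 0.653), and 0.08 to 0.65 with single arrays left out.

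Of 8 genes whose proteins read iron inside the cell, 7 were tested and 0 called (limma), beside 2.94% of all genes higher and 1.3% lower. At an unadjusted p below 0.05 (limma) there were also 0, beside 14.7% and 6.92% of all genes. The median was -0.30, beside 0.08 over all tested genes. *Aco1*, iron regulatory protein 1, had a log2 fold change of 0.46 (limma, adjusted p = 0.351) and *Fbxl5*, which senses iron and marks iron regulatory proteins for decay, -0.64 (adjusted p = 0.331), or -0.34 without hCNR1-/- mouse 4. *Ireb2*, iron regulatory protein 2, was well above background on 1 of 4 arrays in each group and was not tested.

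All 14 genes of heme synthesis and breakdown were tested, 1 was called higher and 0 lower (limma), and the median was 0.01. Of all tested genes, 2.94% were called higher and 1.3% lower. At an unadjusted p below 0.05 (limma), 2 of the 14 were higher and 1 lower, beside 14.7% and 6.92% of all genes. The call was *Blvrb*, biliverdin reductase B, at 6.21, 5.95, 6.18 and 5.18 in hCNR1+/+ and 7.27, 7.10, 7.06 and 6.70 in hCNR1-/- mice. The separation was complete, and the log2 fold change was 1.15 with an interval from 0.54 to 1.76 (limma, adjusted p = 0.0481), close to the threshold and below it in 5 of 21 alternative settings. *Alas1*, the rate-limiting enzyme of heme synthesis in liver, measured 8.19, 8.21, 9.12 and 9.49 in hCNR1+/+ and 7.41, 7.98, 8.01 and 7.73 in hCNR1-/- mice. The groups did not overlap, but the log2 fold change of -0.97 did not pass (limma, adjusted p = 0.128).
*Hmox1*, heme oxygenase 1, which frees iron from heme in hepatocytes and macrophages, measured 6.98, 8.10, 8.22 and 9.58 in hCNR1+/+ and 7.26, 7.56, 7.15 and 7.39 in hCNR1-/- mice. Its log2 fold change was -0.88 (limma, adjusted p = 0.303), or -0.43 without hCNR1+/+ mouse 4, and the lowest value was in an hCNR1+/+ mouse.

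Among 16 genes of mitochondrial iron and iron-sulfur clusters, 15 were tested and 0 called (limma, 3 higher and 0 lower at an unadjusted p below 0.05, beside 14.7% and 6.92% of all genes), with a median of 0.14. Among 15 acute phase genes, all were tested, and 1 was called lower and 0 higher, with a median of -0.17. Of all tested genes, 1.3% were called lower and 2.94% higher. At an unadjusted p below 0.05 (limma), 4 of the 15 were lower and 0 higher, beside 6.92% and 14.7% of all genes. With a fold change above 2 as well, 2 were lower and 0 higher, beside 3.75% and 4.78% of all genes. The called gene was *Orm1*, the plasma protein orosomucoid 1, at 7.80, 7.63, 7.49 and 8.28 in hCNR1+/+ and 6.95, 6.78, 6.92 and 6.12 in hCNR1-/- mice. The log2 fold change was -1.11 with an interval from -1.70 to -0.51 (limma, adjusted p = 0.0494), and the adjusted p was below 0.05 in 7 of 21 alternative settings. *Saa1*, serum amyloid A1, a strong marker of the same response, had a log2 fold change of 0.05 with an interval from -0.58 to 0.67 (limma, adjusted p = 0.942), and -0.06 to 0.31 with single arrays left out.

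**Figure D3:**
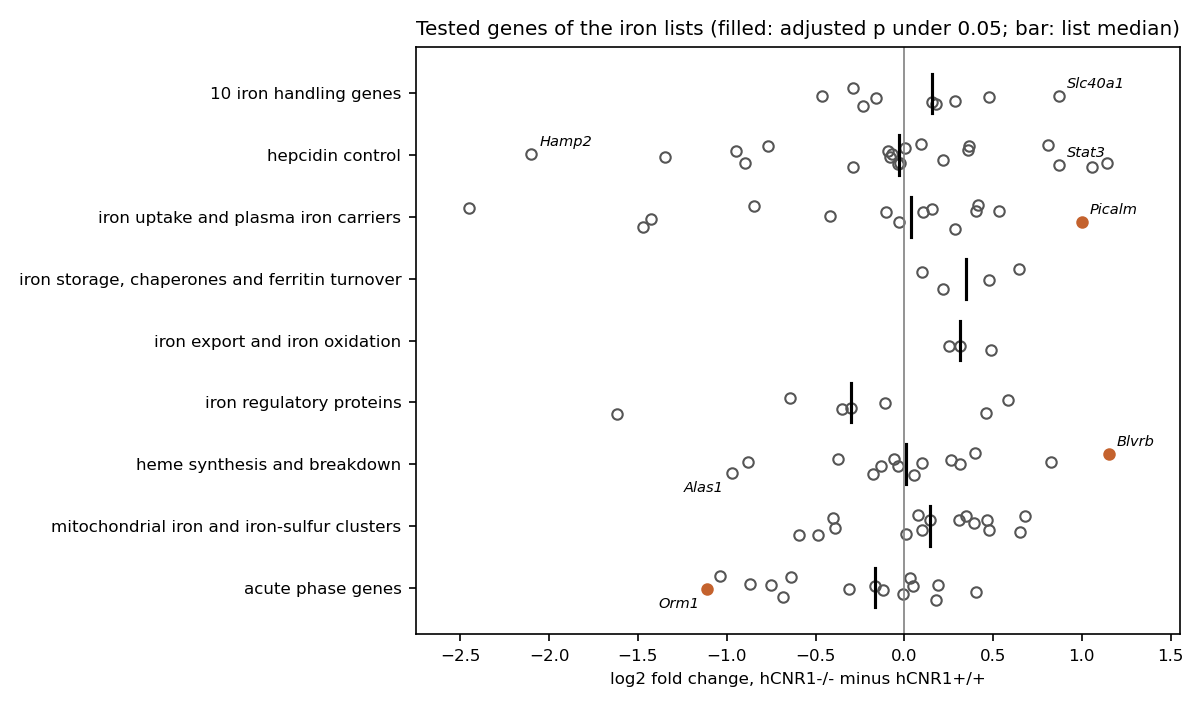
Log2 fold change (hCNR1-/- minus hCNR1+/+, horizontal axis) of each tested gene of the 10 iron handling genes and of the 8 wider lists, with a bar at each list's median. Filled points passed an adjusted p of 0.05 in limma; these are *Picalm*, *Blvrb* and *Orm1*, and none is among the 10.

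Together the 8 wider lists held 103 genes, of which 92 were tested, 2 were called higher and 1 lower (limma), and 9 were separated without overlap in each direction. Of all tested genes, 2.94% were called higher and 1.3% lower, and 12.7% were separated higher and 5.04% lower. At an unadjusted p below 0.05 (limma), 9 of the 92 were higher and 12 lower, beside 14.7% and 6.92% of all genes. The median log2 fold change of the 92 was 0.02, beside 0.08 over all tested genes.

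In hCNR1+/+ mice, mouse 4 held the highest level of 7 of the 9 tested genes. It also had the highest hepatocyte and Kupffer cell marker means (8.48 and 2.36) and the lowest 75th percentile of intensity of its group (62.0). In hCNR1-/- mice, mouse 4 held the highest level of 5 and the lowest of 3 of the 9, on the dimmest array of all. Such counts were not made over all tested genes, and the part of array brightness in these levels was not tested. The genes whose deviations from the group means followed *Hamp* most closely over the 8 arrays, among 8338 genes, were *Chchd5* (Pearson r = 0.978), the coagulation factor gene *F7* (0.974) and the liver transcription factor gene *Foxa3* (0.973). These arrays share the same brightness differences, and the correlations are given as a description.

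**Figure D4:**
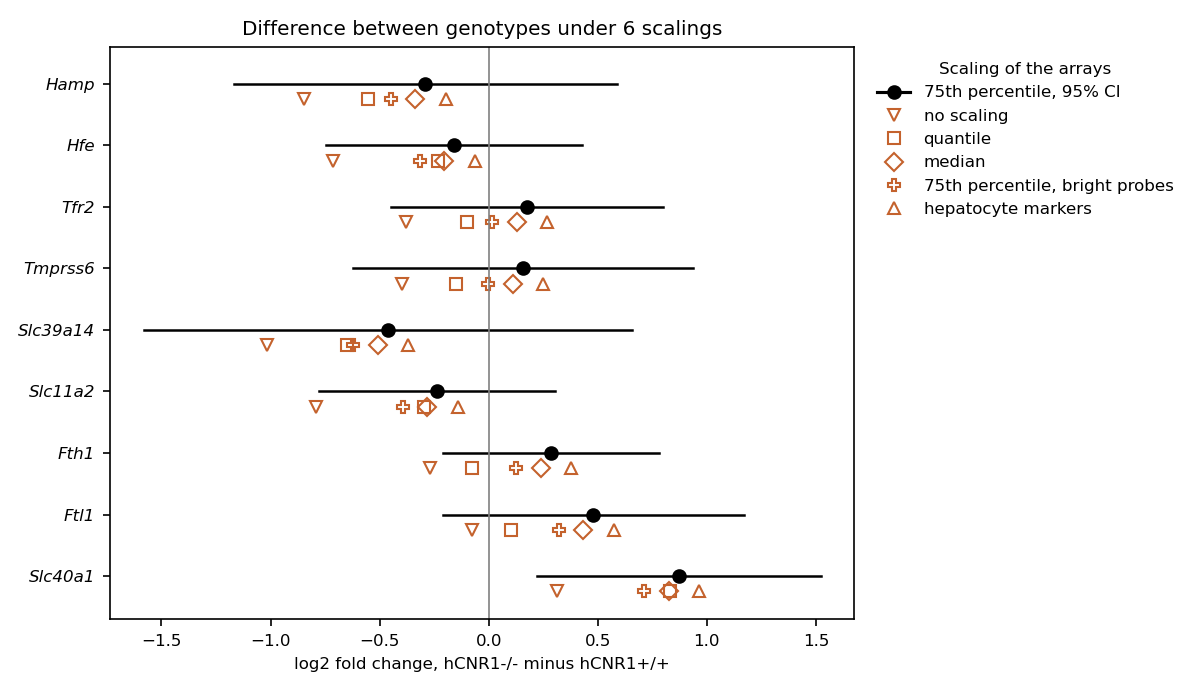
Log2 fold change (hCNR1-/- minus hCNR1+/+, horizontal axis) of each tested iron handling gene with its 95% confidence interval under 75th percentile scaling (filled points and lines) and its value under 5 other scalings (open symbols). *Slc40a1* stays above 0 under all 6, from 0.32 to 0.96, while *Tfr2*, *Tmprss6*, *Fth1* and *Ftl1* change sign between scalings.

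Of the 9 genes, *Hamp*, *Hfe*, *Slc39a14* and *Slc11a2* stayed below 0 and *Slc40a1* above 0 under all 6 scalings. Without scaling the median over all genes was -0.47, and *Tfr2*, *Tmprss6*, *Fth1* and *Ftl1* were then below 0 as well.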

How the data were processed

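The authors deposited, for each array, the background-corrected spot intensity of Agilent Feature Extraction 12.0.3.1, not scaled between arrays, and a score per spot that lay within 0.005 of the z-score of its log intensity. Here log2 intensities were set against the 75th percentile over 59305 non-control spots, flagged outlier spots were left out and spots of a probe averaged. A probe was well above background where at least 50% of its spots carried that flag. Accessions were matched to RefSeq names of GRCm38.p6 (28331 of 55681 probes); the array design names another build. Genes entered with the brightest probe, if well above background on at least 4 arrays, into lmFit and eBayes of limma 3.58.1 (R 4.3.3), tested on simulated data. An exact permutation test used the 70 assignments. All 10 members were named, with genes of the wider lists below an adjusted p of 0.05 and a fixed set named whatever their values; the members and lists were chosen with earlier results of these data known. Alternatives were scalings, deposited scores, background, filter, probe summary, variance model, array weights, a replicate block and each array left out. Precision is limited by 4 arrays per genotype.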

Additional observations from a re-analysis of the deposited data

Results flagged for a closer look

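Each measured quantity was examined in each genotype for a sample far from the other 3, with a limit that chance passes in about 1 group of 20; 6 of 74 groups passed it, and 3 of the 6 were in hCNR1+/+ mouse 4 and 3 in hCNR1-/- mouse 4. In hCNR1+/+ mouse 4, the brighter *Ftl1* probe was at 11.40 against 10.61 to 10.74 in the other mice, *Saa1* at 12.12 against 11.01 to 11.14, and *Picalm* at 4.10 against 4.52 to 4.54. In hCNR1-/- mouse 4, *Smad7* was at -1.19 against 0.64 to 0.91, the mean of the lymphocyte markers at 5.30 against 3.98 to 4.18, and the mean correlation of the array with its group at 0.94 against 0.97 to 0.98.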

How the results depend on the processing

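No iron handling gene was called under any alternative except array weights, where 1 was (*Slc40a1*). Probes were tested one by one under the other scalings, the block and with single arrays left out, and none of the members' was called there. A fold change above 2 with an unadjusted p below 0.05 was met by 1 gene without the filter on dim probes (*Tfrc*) and by 0 to 1 when single arrays were left out (*Slc40a1*, without hCNR1-/- mouse 2). The log2 fold change turned sign without scaling for *Fth1* (-0.27), *Ftl1* (-0.076), *Tfr2* (-0.38) and *Tmprss6* (-0.40), under quantile normalization for *Fth1* (-0.079), *Tfr2* (-0.10) and *Tmprss6* (-0.15), with the 75th percentile over bright probes for *Tmprss6* (-0.0023), and with array weights for *Hfe* (0.041), *Slc39a14* (0.11) and *Tmprss6* (-0.063). Leaving out single arrays gave -0.54 to 0.088 for *Hamp* (positive only without hCNR1+/+ mouse 4), and, turned only without hCNR1-/- mouse 4, -0.29 to 0.081 for *Hfe*, -0.72 to 0.046 for *Slc39a14* and -0.17 to 0.36 for *Tmprss6*. In settings chosen after seeing the data, without hCNR1-/- mouse 4, *Tfr2* and *Tmprss6* were at -0.071 and -0.30 with no scaling, which called 77 genes in all, and at -0.27 and -0.51 under quantile normalization. Over all genes, 469 calls (30.7% lower in hCNR1-/-) became 30 without scaling (96.7% lower), 217 with quantile, 50 with median (50% lower), 310 with bright-probe (67.4% lower) and 164 with hepatocyte marker scaling (45.1% lower), 81 with the deposited scores (63.0% lower), 26 with normexp background correction, 22 without the filter, 2822 with array weights and 38 to 1444 when single arrays were left out (lowest without hCNR1+/+ mouse 3, highest without hCNR1-/- mouse 4). By fold change above 2 with an unadjusted p below 0.05, 529 higher and 415 lower genes became 87 and 630 without scaling, 358 and 640 with bright-probe scaling, 655 and 335 with hepatocyte marker scaling and 398 and 467 with the deposited scores. The causes were not tested. Mouse numbers name samples only: correlations of same-numbered deviations ran from -0.16 to 0.21, and with the replicate number as a block 0 genes were called and *Slc40a1* stayed at 0.87 (adjusted p = 0.139). Signals near background limit what can be said of *Tfrc*, *Bmp6*, *Bmp2*, *Smad6* and *Ireb2*.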

Other observations

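Chosen after their values were seen, and outside the rule for named genes, 3 further separated genes of the lists are described here. They include transporters of iron and heme. Of the 92 tested genes of the wider lists, 9 were separated higher and 9 lower in hCNR1-/-, beside 12.7% and 5.04% of all genes. Other separated genes not described here included *Scara5*, *Slc39a8* and *Skp1*, all lower, and *Urod*, higher. *Slc11a1*, the macrophage iron transporter NRAMP1, measured -0.79, 0.24, 0.10 and 1.36 in hCNR1+/+ and -1.34, -1.12, -1.58 and -0.94 in hCNR1-/- mice, with a log2 fold change of -1.47 (limma, adjusted p = 0.0722), with Kupffer cell marker means of 1.24 to 2.36 and 0.23 to 0.98 on the same arrays, whose part was not tested. *Slc48a1*, the heme transporter HRG1, measured 6.33, 6.53, 6.48 and 6.0 in hCNR1+/+ and 7.40, 7.19, 6.92 and 7.13 in hCNR1-/- mice, with a log2 fold change of 0.83 (limma, adjusted p = 0.0563). *Socs3*, the feedback inhibitor of STAT3 signalling, measured 3.11, 3.17, 5.56 and 4.50 in hCNR1+/+ and 2.35, 2.96, 3.0 and 2.66 in hCNR1-/- mice, with a log2 fold change of -1.35 (limma, adjusted p = 0.165) or -0.85 without hCNR1+/+ mouse 3, opposite in sign to that of *Stat3*. None of the 3 passed the threshold.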
